A study of Homo sapiens with 16 samples.

Results

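The question was whether estrogen receptor beta (ERβ) changes p65 binding near genes differently in SW480 than in HT29 cells. For each protein-coding gene, the change in p65 ChIP-Seq signal with ERβ was taken in each cell line, and the HT29 change was subtracted from the SW480 change (the difference of ERβ effects). A gene was represented by its highest 200-bp bin, by the mean over 12 ChIP tracks, in a range that began 10 kb before its transcription start site (TSS) and ended 2 kb after it. Of 19970 protein-coding genes, 18861 were measured, and 16511 distinct bins represented them, since 4413 genes shared a bin with another gene.

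The series held 12 p65 ChIP libraries, 3 each of HT29 mock, HT29 with ERβ, SW480 mock and SW480 with ERβ, and 1 input library of each of these 4 groups. HT29 and SW480 are human colorectal adenocarcinoma cell lines, previously made to express ERβ stably or carrying the empty vector (mock), and no source used here states whether each was a clone or a pool. All 12 ChIP samples were treated with TNFα at 30 ng/ml for 30 min and crosslinked with disuccinimidyl glutarate and formaldehyde, and none received an added estrogen ligand. The difference of ERβ effects is therefore a difference among TNFα-treated cells, and no unstimulated cells entered it. The study's data statement lists the ERβ input controls under another deposited series than its p65 ChIP data.

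NFκB is a family of dimeric transcription factors, and p65 (RELA) is its main transactivating subunit. In resting cells IκB proteins hold it in the cytoplasm. TNFα activates the IκB kinase complex, IκB is degraded, and p65 enters the nucleus and binds κB sites near genes for chemokines, cytokines, survival factors and NFκB's own inhibitors, such as NFKBIA and TNFAIP3. ERβ, the product of ESR2, is an estrogen receptor found in colon epithelial cells. As a nuclear hormone receptor it acts on transcription through estrogen response elements in DNA or through contact with other transcription factors.

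The labels could be checked on the tracks. Every one of the 16 libraries correlated best, over 1-Mb windows of the genome (n = 2823), with a library of its own cell line. The 8 coding exons of ESR2, which an introduced coding sequence would add to, were compared with the rest of the gene. In the ERβ ChIP libraries they carried 4.48 to 8.1 times its signal in HT29 and 2.59 to 3.22 times in SW480. The ratios were 1.09 to 1.37 and 1.35 to 1.6 in the mock ChIP libraries. The ERβ inputs had 2.31 in HT29 and 1.9 in SW480. Each mock input lay within the range of its line's mock ChIP libraries. These ratios are of DNA signal and do not measure ERβ expression. The study states that SW480 expresses more of the introduced ERβ than HT29 does. Whether that level bears on the difference of ERβ effects was not tested. The libraries also differed in how far the strong bins stood above the rest. The median excess over background at the 300 strongest bins was 8.99, 4.41 and 4.77 in HT29 mock replicates 1 to 3, 7.89, 3.65 and 3.53 in HT29 ERβ, 3.75, 4.58 and 4.54 in SW480 mock, and 5.36, 10.7 and 9.45 in SW480 ERβ. This measure was higher with ERβ in each SW480 pair and lower in each HT29 pair, so it moved with the result described here. More cells with bound p65, more p65 bound per cell, and a different ChIP enrichment of the libraries with no change in binding would give the same values and cannot be told apart in these tracks.

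The bins that led the comparison are shown first, because the genes are named for them. They are reference sequence of the hg38 (GRCh38) build, plus strand, for 7 of the 12 genes of largest difference, and capitals mark matches to the κB consensus on either strand, with overlapping matches run together.
TNFAIP2, chr14:103122401-103122600: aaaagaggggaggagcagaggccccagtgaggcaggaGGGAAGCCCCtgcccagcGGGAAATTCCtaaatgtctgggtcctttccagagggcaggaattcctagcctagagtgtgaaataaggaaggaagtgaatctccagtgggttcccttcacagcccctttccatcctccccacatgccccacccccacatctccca
CXCR6, chr3:45942601-45942800: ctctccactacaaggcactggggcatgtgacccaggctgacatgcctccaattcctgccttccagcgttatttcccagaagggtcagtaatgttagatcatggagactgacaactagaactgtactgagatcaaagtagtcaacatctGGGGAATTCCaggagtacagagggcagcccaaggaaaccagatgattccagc
ABHD16B, chr20:63854001-63854200: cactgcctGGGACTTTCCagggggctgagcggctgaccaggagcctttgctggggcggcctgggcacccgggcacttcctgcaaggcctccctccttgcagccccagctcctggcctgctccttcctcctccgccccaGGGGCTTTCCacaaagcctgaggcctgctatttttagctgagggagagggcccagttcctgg
MFSD10, chr4:2937401-2937600: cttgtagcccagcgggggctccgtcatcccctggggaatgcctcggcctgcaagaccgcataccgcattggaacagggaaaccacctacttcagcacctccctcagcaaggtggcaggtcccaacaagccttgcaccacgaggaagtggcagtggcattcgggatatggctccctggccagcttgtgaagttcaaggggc
CIITA, chr16:10871801-10872000: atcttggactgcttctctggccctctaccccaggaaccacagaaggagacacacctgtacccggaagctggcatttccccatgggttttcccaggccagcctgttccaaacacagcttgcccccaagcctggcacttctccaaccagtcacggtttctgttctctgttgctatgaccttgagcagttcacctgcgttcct
CLIP2, chr7:74284801-74285000: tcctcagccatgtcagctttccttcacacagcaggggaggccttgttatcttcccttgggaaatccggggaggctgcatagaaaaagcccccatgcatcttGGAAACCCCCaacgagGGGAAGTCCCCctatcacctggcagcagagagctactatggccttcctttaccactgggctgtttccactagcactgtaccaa
MRM3, chr17:773801-774000: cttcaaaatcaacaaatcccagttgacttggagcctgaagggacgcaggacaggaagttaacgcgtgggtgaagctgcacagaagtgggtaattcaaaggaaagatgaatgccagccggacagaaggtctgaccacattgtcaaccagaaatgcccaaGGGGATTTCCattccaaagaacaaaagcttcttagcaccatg

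A κB match was present in 5 of these 7 bins, and the MFSD10 and CIITA bins held none. Among all 16511 bins 18.9% held a κB match, compared with 69.2% of the 672 bins that were enriched over input and called higher in SW480 and 63.4% of the 492 that were enriched and not called. Neither an AP-1 site (TGACTCA or TGAGTCA, both strands) nor the palindromic estrogen response element GGTCANNNTGACC was in these 7 bins, and the latter was found in 6 of all 16511 bins.

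In the tracks as deposited, p65 signal rose with ERβ in SW480 relative to HT29 at a large set of genes, and the opposite was rare. The difference of ERβ effects passed the threshold (adjusted p under 0.05, limma with Benjamini-Hochberg adjustment) at 1767 of 18861 genes in the higher direction (9.37%) and at 10 in the lower direction (0.053%). At the 1767 genes the median change with ERβ was 0.79 in SW480 and -0.27 in HT29, on the log2(signal + 1) scale, a median difference of 1.03. The SW480 change was itself called upward at 1520 of them, and the HT29 change was below 0 at 1629. Selection on the difference favours both of these signs, and the HT29 change itself was called at 0 genes in this fit. At 905 of the 1767 genes all 3 SW480 pairs were higher and all 3 HT29 pairs lower with ERβ, a pattern shown by 8.31% of all genes. Over all genes the 3 SW480 pairs lay above the 3 HT29 pairs at 22.1% and below them at 2.49%.

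The counts depended on the fit, and the excess of higher over lower differences on the scaling, though higher calls outnumbered lower ones in each fit run. Without the pairing by replicate number, 167 genes were called higher and 1 lower. The higher count was 942, 1083 and 838 when HT29 pair 1, 2 or 3 was left out, and 2630, 881 and 939 when SW480 pair 1, 2 or 3 was left out. A core of 463 of the 1767 genes (26.2%) was called higher in every one of these 6 fits. The median over all genes was already 0.18 on the difference scale, and with the excess at the 300 strongest bins set equal in all libraries (equal-enrichment scaling) it was 0.05, with 115 genes called higher (0.61%), all of them among the 1767, and 11 lower (0.0583%). Equal-enrichment scaling holds the typical difference at those 300 bins near 0 by construction. With quantile normalization the median was -0.02, with 75 genes called higher and 8 lower. At an unadjusted p under 0.05, the genes with a higher and a lower difference numbered 3905 and 203 as deposited, 1395 and 555 under equal-enrichment scaling, and 1073 and 808 with quantile normalization.

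Within each line, ERβ changed p65 signal past the threshold only in SW480 in the fit reported here. The SW480 effect was called upward at 2542 genes (13.5%) and downward at 63 (0.334%). The upward and downward calls were 400 and 104 under equal-enrichment scaling, 312 and 90 with quantile normalization, and 1530 and 269 with median centring. In HT29 limma called 0 genes in either direction, with 217 higher and 803 lower at an unadjusted p under 0.05. Under equal-enrichment scaling these were 355 and 443, and with quantile normalization 530 and 512, so the excess of lower genes in HT29 depended on the scaling. Some alternatives did call HT29 genes, 258 higher and 2216 lower with the input ratio and 2 lower with local background correction.

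Genes with p65 enriched over input are described as a group of their own. A bin was taken as input-enriched where its mean over the 12 ChIP tracks was at least 2 times that of the 4 inputs after 1 was added to both, which 1436 genes met (7.61%). Because all 12 tracks entered this rule, a gene could meet it through the group in which it was high, as CXCR6 and MRM3 did through SW480 ERβ, and the values over this group are a description. Of the 1436 genes 801 were called higher (55.8%) and 0 lower (0 also at an unadjusted p under 0.05), and 1431 had a difference above 0. At 1081 of them (75.3%) every SW480 pair lay above every HT29 pair, and at 542 (37.7%) all 3 SW480 pairs were higher and all 3 HT29 pairs lower with ERβ. The median difference was 0.93, compared with 0.15 at the 17425 other genes, of which 966 were called higher without input enrichment. The median change of the 1436 genes was 0.70 in SW480 and -0.22 in HT29. When enrichment was judged from the 6 mock tracks alone, a choice added after seeing the data, 1162 genes met it, of which 630 were called higher (54.2%) and 0 lower, with a median difference of 0.92, and 0.14 under equal-enrichment scaling. The bins were still those chosen by the mean over 12 tracks, SW480 ERβ among them, and 1150 of the 1162 genes were in the first group. The values over this second group are therefore a description as well. Averaged over the 1436 genes, the ERβ change was 0.42, 0.97 and 0.79 in SW480 pairs 1 to 3 and -0.20, -0.18 and -0.28 in HT29 pairs 1 to 3. The SW480 mean was 0.73 ± 0.28 and the HT29 mean -0.22 ± 0.05 (SD, n = 3 pairs each). The pairs of the lines did not overlap, and the exact two-sided permutation test gave p = 0.1, the smallest p that 3 against 3 pairs allow, so it could not pass the threshold and supports nothing here. Under equal-enrichment scaling the median difference over the 1436 genes was 0.17 in place of 0.93, with 977 positive.

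**Figure D1:**
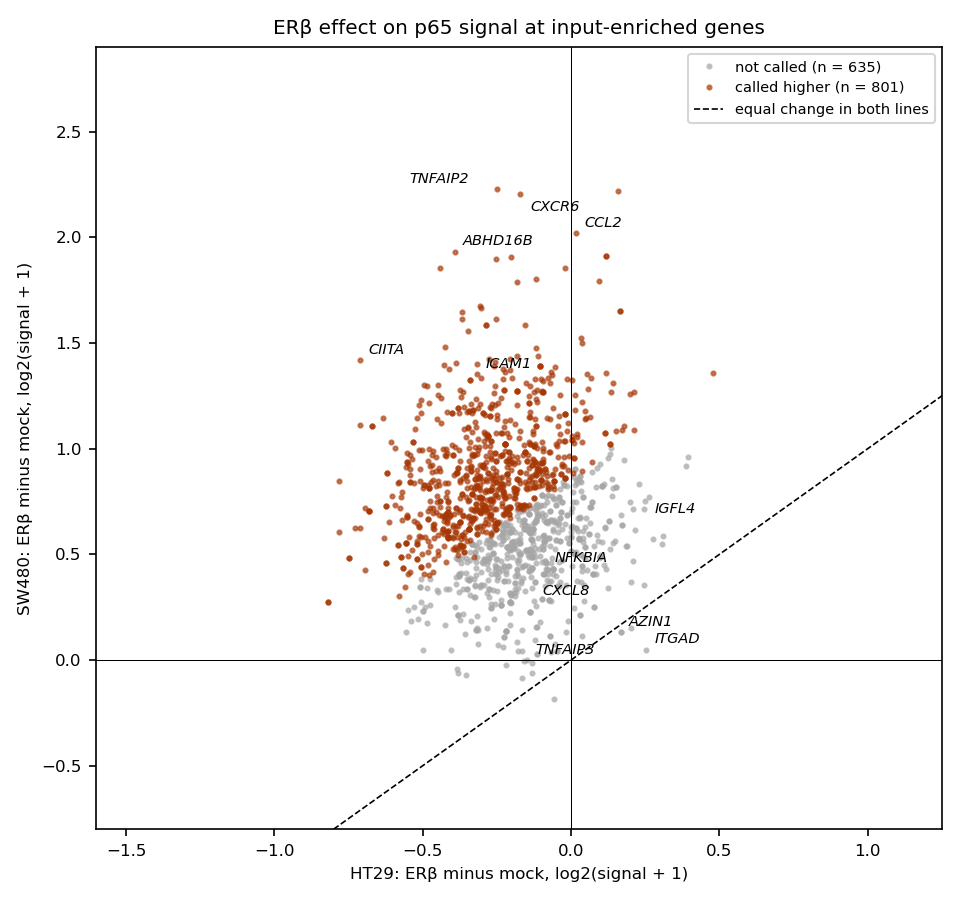
ERβ effect in HT29 (x axis) and in SW480 (y axis) at the 1436 input-enriched genes, each a fitted log2(signal + 1) difference of ERβ minus mock over 3 pairs, with the 801 genes called higher in brown and the other 635 in grey. Nearly all points lie above the dashed line of equal change, mostly left of 0 on the HT29 axis and above 0 on the SW480 axis.

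The median difference varied with the mean signal of the bin. It was 0.08 at bins with a mean signal under 1, 0.41 from 1 to 2, 0.86 from 2 to 4, 0.96 from 4 to 8 and 0.88 at 8 or more. Under equal-enrichment scaling these medians were 0.04, 0.04, 0.21, 0.06 and -0.17, so the order by signal depended on the scaling. Values near 0 at the strongest bins are built into that scaling. At input-enriched genes the median was 0.93 for the 888 genes with their bin within 1 kb of the TSS, 0.92 for the 454 with it further upstream, and 0.92 for the 94 with it 1 to 2 kb downstream.

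The 12 genes of largest difference were TNFAIP2, CXCR6, ABHD16B, LAD1, MFSD10, CIITA, TNFRSF6B, CLIP2, MRM3, TIFA, CCL2 and COLEC10. All were input-enriched except TNFRSF6B, whose bin reached 1.82 on that ratio. All 12 remained called when any single replicate pair was left out, and all 12 were also called under equal-enrichment scaling. TIFA was not called without the replicate block. Their SW480 ERβ libraries did not overlap the SW480 mock libraries for any of the 12 genes. The 12 were chosen in these same libraries for large differences with pairs that did not overlap, which favours such results, so they are a description.

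TNFAIP2, a TNF-inducible gene whose product takes part in forming membrane protrusions, had the largest difference. Its bin lay 961 bp upstream of the canonical TSS, in an intron of a longer TNFAIP2 transcript, and it held 2 κB matches. The signal was 5.32, 2.10 and 3.11 in HT29 mock replicates 1 to 3, 3.65, 2.10 and 2.31 in HT29 ERβ, 0.84, 1.09 and 1.31 in SW480 mock, and 7.03, 8.99 and 10.3 in SW480 ERβ. The SW480 libraries separated completely while the HT29 groups overlapped. The difference was 2.48 ± 0.30 (SE, n = 3 pairs per line), which is 5.57-fold on the scale of signal + 1, with adjusted p = 1.31e-08. SW480 mock cells had less signal here than any HT29 library, and SW480 ERβ cells more than any.

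CXCR6, the receptor of the chemokine CXCL16, and MRM3, which encodes a methyltransferase of mitochondrial ribosomal RNA, were near background in HT29 whether or not ERβ was present. The CXCR6 bin, 764 bp upstream of the TSS and in introns of CXCR6 and FYCO1, had a signal of 0.5, 0.439 and 0.307 in HT29 mock and 0.217, 0.240 and 0.310 in HT29 ERβ. It was 0.484, 0.720 and 0.562 in SW480 mock and 6.94, 7.92 and 4.49 in SW480 ERβ. The single group that stood out was SW480 ERβ, and the difference was 2.37 ± 0.27 (adjusted p = 2.34e-09). The MRM3 bin lay 8453 bp upstream of its TSS in an intron of GLOD4. Its signal was 0.356, 0.290 and 0.430 in HT29 mock, 0.440, 0.770 and 0.360 in HT29 ERβ, 0.938, 1.24 and 0.630 in SW480 mock, and 5.44, 10.9 and 8.34 in SW480 ERβ. The MRM3 difference was 2.06 ± 0.28 (adjusted p = 4.05e-07), and with the range cut to 1 kb upstream and 100 bp downstream it was 0.57 and not called.

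CCL2, the monocyte chemoattractant, was also highest in SW480 ERβ, at a bin 2585 bp upstream of its TSS, between genes (chr17:34252601-34252800, hg38), where all 12 libraries lay above the mean input of 0.286. The signal was 2.39, 0.919 and 0.331 in HT29 mock, 1.41, 0.968 and 0.891 in HT29 ERβ, 1.80, 1.92 and 4.28 in SW480 mock, and 9.61, 17.4 and 13.7 in SW480 ERβ. The SW480 ERβ libraries were the highest 3 of the 12, and SW480 mock replicate 3 was the next. The difference was 2.00 ± 0.31 (adjusted p = 7.7e-06), nearly all of it from SW480, where signal rose by 2.02 compared with 0.02 in HT29. Under equal-enrichment scaling the CCL2 difference was 1.19 and called, and without HT29 pair 1 under that scaling it was 0.96 and not called.

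A second pattern was a gene at which SW480 mock lay below every HT29 library and SW480 ERβ overlapped the HT29 libraries. TIFA, an adapter protein that relays signals to TRAF6 and NFκB, showed it at an intronic bin 804 bp downstream of its TSS (chr4:112285001-112285200). The signal was 11.7, 6.94 and 5.97 in HT29 mock, 9.52, 5.73 and 3.61 in HT29 ERβ, 0.866, 1.15 and 2.00 in SW480 mock, and 4.07, 8.30 and 6.78 in SW480 ERβ. SW480 ERβ overlapped both HT29 groups and SW480 mock lay below all of them. The TIFA difference was 2.01 ± 0.31 (adjusted p = 5.91e-06, and 0.053 without the replicate block).

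MFSD10, a member of the major facilitator family of transporters, COLEC10, a secreted collectin of innate immunity, and CLIP2, a linker of membranes to microtubules, were of the same kind. At the MFSD10 bin, 2675 bp upstream and between genes, the signal was 8.23, 3.23 and 3.65 in HT29 mock, 6.94, 2.44 and 2.92 in HT29 ERβ, 0.704, 0.380 and 0.810 in SW480 mock, and 4.86, 6.2 and 4.21 in SW480 ERβ. All 3 HT29 pairs were lower and all 3 SW480 pairs higher with ERβ, for a difference of 2.15 ± 0.30 (adjusted p = 6.47e-07). At the COLEC10 bin, 453 bp downstream of the TSS in an intron, the mean rose in SW480 from 0.373 ± 0.0505 to 3.54 ± 1.34 (SD, n = 3), and in HT29 it was 6.37 ± 2.21 and 4.84 ± 0.96 (mock and ERβ), a difference of 1.98 ± 0.31 (adjusted p = 7.84e-06). At the CLIP2 bin, 4507 bp upstream and between genes, the means were 1.78 ± 0.53 and 9.46 ± 2.28 in SW480 and 5.72 ± 2.79 and 4.94 ± 2.63 in HT29, a difference of 2.11 ± 0.31 (adjusted p = 3.77e-06).

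LAD1, a component of epithelial basement membrane anchoring, TNFRSF6B, a soluble decoy receptor for FAS ligand and related TNF family ligands, CIITA, the master regulator of MHC class II genes, and ABHD16B completed the 12. The LAD1 bin lay 4776 bp upstream in an exon of the neighbouring gene TNNI1, and its signal was 8.95, 4.37 and 4.83 in HT29 mock, 4.89, 4.24 and 3.01 in HT29 ERβ, 0.702, 0.893 and 3.58 in SW480 mock, and 5.65, 8.70 and 9.84 in SW480 ERβ. Every SW480 pair was higher and every HT29 pair lower with ERβ, for a difference of 2.30 ± 0.31 (adjusted p = 4.05e-07). The CIITA bin, 5302 bp upstream of the canonical TSS in an intron of a longer transcript, had 2.20, 1.77 and 1.59 in HT29 mock, 1.18, 0.350 and 0.780 in HT29 ERβ, 1.28, 0.836 and 1.33 in SW480 mock, and 2.54, 5.68 and 6.87 in SW480 ERβ. CIITA had the most negative HT29 change of the 12, -0.71 on the log2 scale (adjusted p = 0.765), beside 1.42 in SW480. The CIITA difference was 2.13 ± 0.30 (adjusted p = 6.14e-07), and with the TSS placed at the 5′ end of the whole gene another bin represented it and the difference was -0.19.

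The TNFRSF6B bin, 9752 bp upstream, lay in an exon of the read-through gene RTEL1-TNFRSF6B, and its signal rose in SW480 from 1.1, 0.430 and 0.528 to 5.76, 5.04 and 3.92 and went in HT29 from 3.42, 2.36 and 2.09 to 2.86, 1.51 and 1.54. The difference was 2.12 ± 0.29 (adjusted p = 4.05e-07). The ABHD16B bin, 7398 bp upstream and between genes, was the strongest of the 12, with 1.91, 2.89 and 3.60 in SW480 mock, 10.5, 15.5 and 14.2 in SW480 ERβ, 11.6, 5.62 and 8.74 in HT29 mock, and 8.61, 6.35 and 4.08 in HT29 ERβ. Its difference was 2.32 ± 0.31 (adjusted p = 3.44e-07). When the search was cut to 1 kb before and 100 bp after the TSS, TNFAIP2 and CXCR6 kept their bins and calls, the other 10 genes were not called, and LAD1, MFSD10, CIITA and COLEC10 had differences below 0.

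**Figure D2:**
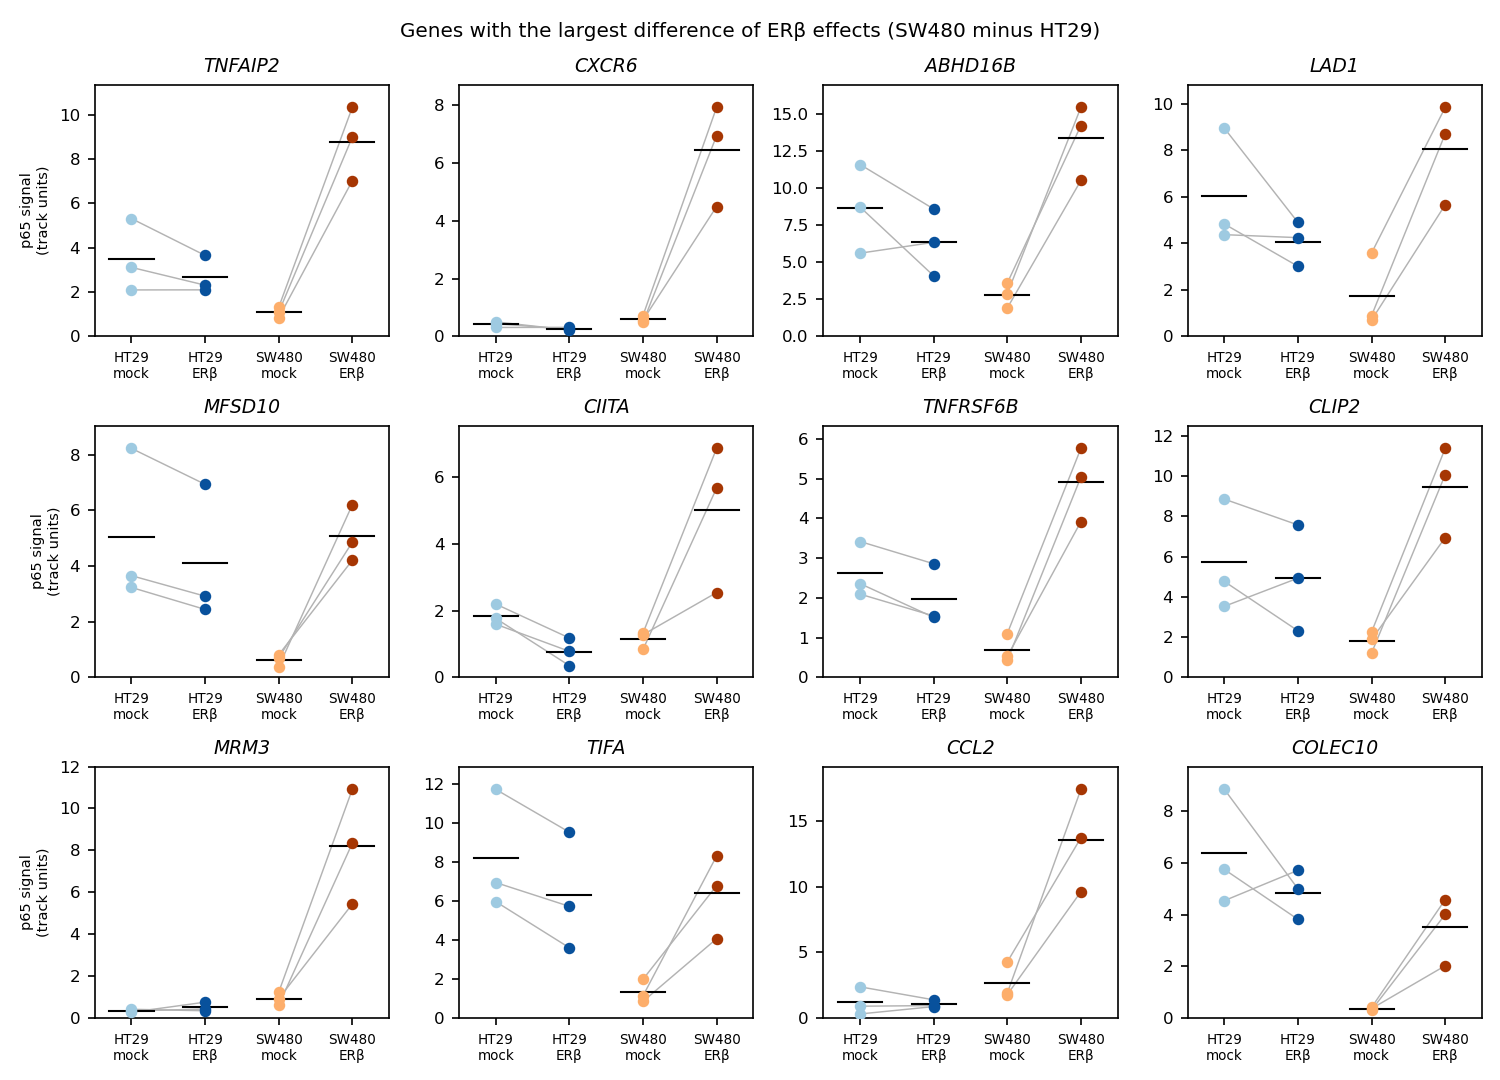
p65 signal (y axis, track units, from 0) at the bins of the 12 genes of largest difference, with 1 point per library, grey lines joining the mock and ERβ libraries of the same replicate number, and black bars at group means. In each panel the 3 SW480 ERβ libraries lie above the 3 SW480 mock libraries, while the HT29 groups overlap in all panels but that of CIITA.

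Grouped by function, the genes of 19 lists could be set against the 9.37% called higher among all genes and, for input-enriched members, against the 55.8% among all input-enriched genes. The medians given here are of the difference of ERβ effects, and no list was tested as a set. The input-enriched rule used all 12 tracks, so a member could meet it through SW480 ERβ. Counts and medians over input-enriched members, and the order of lists by them, are therefore a description. Chemokine genes were called higher at 7 of 18, cytokine and colony-stimulating factor genes at 8 of 18, apoptosis and survival genes at 9 of 24, AP-1 and stress-response factor genes at 7 of 18, and oxidative and metabolic stress genes at 7 of 17. Of the input-enriched members of these 5 lists, in the same order, 7 of 10, 6 of 7, 7 of 8, 5 of 5 and 3 of 5 were called. Under equal-enrichment scaling 1 chemokine gene and 0 genes of the other 4 lists were called higher, and 15 of the 19 lists had no higher call. Among ribosomal protein genes 6 of 81 were called higher (7.41%, near the share of all genes), 4 of them among the 6 input-enriched members. Among olfactory receptor genes 3 of 351 were called higher. The EGFR ligand and receptor list had 0 of 12 called, with 3 higher and 0 lower at an unadjusted p under 0.05, and its differences ran up to 0.64, at EREG. None of these 8 lists had a gene called lower. Of the list members called higher and named in what follows, NFKBIZ, CCL20, IL32, BIRC2, BID and IRF1 had differences from -0.14 to -0.00 under equal-enrichment scaling, and IKBKE, RIPK2, KLF10 and ISG15 from -0.06 to -0.00 with quantile normalization, so their direction depended on the scaling. With the range cut to 1 kb before and 100 bp after the TSS, TNFRSF1B (-0.29), ITGB6 (-0.25), NR1D2 (-0.18), CCL28 (-0.12), ISG15 (-0.09), MT2A (-0.02) and FOSB (-0.01) also had differences below 0.

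Among the chemokines, CCL2 was followed by the neutrophil attractants CXCL1 (1.55), CXCL2 (1.39) and CXCL3 (1.28), then CXCL10 (1.04), CCL20 (1.02) and CCL28 (1.00). The CXCL1 bin lay 93 bp upstream of the TSS. Its signal was 13.4, 8.32 and 7.87 in HT29 mock, 9.93, 7.19 and 6.84 in HT29 ERβ, 3.32, 4.69 and 6.21 in SW480 mock, and 9.81, 12.6 and 16.8 in SW480 ERβ. All 3 pairs were lower in HT29 and all 3 higher in SW480 (adjusted p = 0.000211). Under equal-enrichment scaling the CXCL1 difference was 0.54 and not called (adjusted p = 0.277). CXCL8, the closely related neutrophil chemokine, was bound about as strongly in mock cells and differed by 0.40 ± 0.31 (adjusted p = 0.507), with 6.66, 4.75 and 4.58 in SW480 mock and 4.58, 9.96 and 6.14 in SW480 ERβ. Its direction depended on the scaling, at -0.60 under equal-enrichment scaling, -0.50 with quantile normalization and -0.27 with the input ratio. CXCL9, CXCL11 and CXCL14 had differences between -0.15 and 0.20. Of the 7 chemokine calls, 4 held when any single pair was left out, and those of CXCL10 and CCL20 did not.

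Cytokine genes called higher were CSF1 (1.46) and CSF2 (1.29), which encode macrophage and granulocyte-macrophage colony-stimulating factors, EBI3 (1.39), a subunit of IL-27 and IL-35, IL15 (1.18), LIF (0.99), IL32 (0.94), IL7 (0.89) and IL36G (0.68). IL6 had a difference of 0.01, and IL1B one of -0.57 (adjusted p = 0.0923). Of the 8 calls 3 held when any single pair was left out, those of IL32 and LIF among the ones that did not.

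Of the apoptosis and survival genes, both promoters of death and of survival were called. The pro-apoptotic BCL2 family members PMAIP1 (1.41), BBC3 (1.13) and BID (0.94) and the initiator caspase CASP9 (1.12) were called, as were the survival genes CFLAR (1.34), PIM3 (1.30), BIRC2 (0.93) and MCL1 (0.90) and the stress gene GADD45B (1.47). BIRC3, an inhibitor of apoptosis among the 10 strongest bins, had 0.63 ± 0.29 (adjusted p = 0.176). The calls of 4 of the 9 genes, GADD45B and PMAIP1 among them, held when any single pair was left out, and that of BID did not.

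Cell adhesion, matrix and migration genes had the highest median of these lists over input-enriched members, a description since that rule used all 12 tracks. It was 1.39 over 8 genes, all 8 of them called. Among these were ICAM1 (1.67), the leukocyte adhesion molecule, LAMB3 (1.60), a laminin chain, PLAU (1.57) and PLAUR (1.37), urokinase and its receptor, ITGB6 (1.41), ITGB8 (0.95) and EPHA2 (1.20). The ICAM1 bin lay 220 bp upstream of the TSS, with a signal of 8.90, 4.87 and 3.56 in HT29 mock, 6.22, 2.75 and 4.07 in HT29 ERβ, 3.40, 2.84 and 5.32 in SW480 mock, and 9.10, 12 and 12.5 in SW480 ERβ. The SW480 groups did not overlap and the HT29 groups did. Under equal-enrichment scaling no gene of this list was called, with 0.72 at ICAM1 (adjusted p = 0.18) and 1.04 at LAMB3 (adjusted p = 0.0525). The median over all 37 genes of the list was then 0.07, compared with 0.30 as deposited. Over the whole list 11 of 37 genes were called higher, 7 of them whichever pair was left out, and 1, MMP13, was called lower.

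The NFκB subunits and feedback regulators had the lowest median over input-enriched members among the lists with at least 4 of them, though not the lowest median over all members. Of 20 genes 14 were input-enriched, yet 3 were called, the subunits NFKB1 (1.39) and RELA (1.35) and the atypical IκB NFKBIZ (1.01), and the median of the 14 was 0.59. RELB (0.40), REL (0.36), BCL3 (0.45), NFKBIE (0.48), CYLD (0.48) and TNFAIP3 (0.15) were not called. Over all 20 the median was 0.48, and under equal-enrichment scaling it was -0.36, with 2 genes called lower, the turn in sign shared among the 19 lists by the ribosomal protein genes (0.15 and -0.07) alone. That scaling holds the typical strong bin near 0 by construction, so strong genes with a smaller difference fall below 0. Upstream TNF receptor signalling genes had 7 of 27 called, TRAF1 (1.65), TNFRSF1B (1.56), TRAF3 (1.35), IKBKG (1.35), TRAF2 (1.07), IKBKE (0.97) and RIPK2 (0.88), 4 of them whichever pair was left out.

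**Figure D3:**
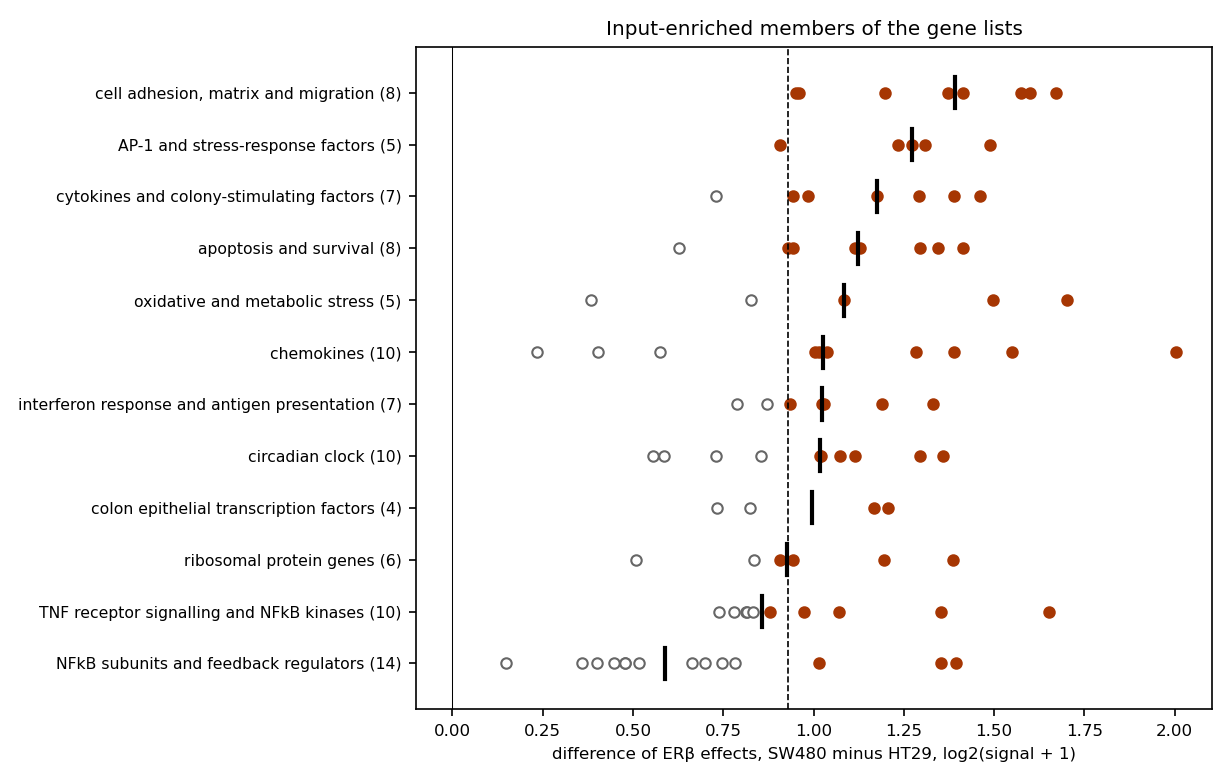
Difference of ERβ effects (x axis, SW480 minus HT29, log2(signal + 1)) of the input-enriched members of each list with at least 4 such members, whose number stands in parentheses, with filled points called higher, open points not called and black bars at medians. The dashed line marks the median of all 1436 input-enriched genes, 0.93, and the NFκB subunit and feedback list lies to its left with a median of 0.59.

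AP-1 and stress-response factors called higher were EGR1 (1.49), MAFF (1.31), MAFK (1.27), JUNB (1.23), FOSB (0.94), KLF10 (0.91) and IER2 (0.90), whereas JUN (-0.01) and FOS (-0.18) were not. The call of KLF10 was lost when any of 5 pairs was left out, and 4 of the 7 calls held throughout. Circadian clock genes had 7 of 23 called. Among these were the nuclear receptors NR1D2 (1.36) and NR1D1 (1.07), the core activators BMAL2 (1.22) and CLOCK (1.02), the kinase gene CSNK1D (1.12) and the repressor BHLHE40 (1.02). The clock repressors CRY1 (-0.30) and PER3 (-0.09) were not called, and 2 of the 7 calls, that of NR1D2 among them, held whichever pair was left out.

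In the oxidative and metabolic stress list, NAMPT (1.70), the rate-limiting enzyme of NAD salvage, the metallothioneins MT2A (1.57) and MT1X (1.01), the ferritin heavy chain FTH1 (1.5), PTGES (1.09), NFE2L2 (1.08) and GCLC (0.92) were called, and SOD2 (0.38) and PTGS2 (0.48) were not. At NAMPT, 317 bp upstream of the canonical TSS, the signal was 7.86, 3.86 and 4.64 in HT29 mock, 6.21, 2.12 and 3.27 in HT29 ERβ, 2.78, 2.09 and 3.73 in SW480 mock, and 8.45, 9.44 and 6.60 in SW480 ERβ. Every HT29 pair was lower and every SW480 pair higher with ERβ. Of the 7 calls 3 held whichever pair was left out, NAMPT and MT2A among them. Under equal-enrichment scaling NAMPT had 0.85 (adjusted p = 0.106) and MT2A 1.01 (adjusted p = 0.0589), and neither was called.

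Interferon response genes had 5 of 23 called, IFIH1 (1.33), IRF2 (1.19), IRF1 (1.02) and ISG15 (0.93) among them, and of the 5 IFIH1 alone held whichever pair was left out. Wnt and Notch genes had 7 of 27 called, led by LEF1 (1.59), a nuclear effector of Wnt, HES1 (1.45), a Notch target, and CTNNB1 (1.30), which encodes β-catenin. HES4, also among these 7, shares its bin with ISG15, so the same bin is counted in both lists. The LEF1 bin, 7368 bp upstream of the TSS, had a signal of 0.520, 0.318 and 0.410 in HT29 mock, 0.200, 0.180 and 0.157 in HT29 ERβ, 0.670, 0.798 and 0.254 in SW480 mock, and 2.84, 3.39 and 2.55 in SW480 ERβ. It was low everywhere except in SW480 ERβ.

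The MAP kinase phosphatase and Sprouty list had 3 of 14 called, DUSP6 (1.20), SPRY4 (1.04) and DUSP5 (0.86), of which DUSP6 held whichever pair was left out. Colon epithelial transcription factor genes had 3 of 21, NFIB (1.20) and ISX (0.77) among them, and CDX2 had -0.44. TGF-β and BMP pathway genes had 2 of 22 (9.09%, near the 9.37% of all genes), SKIL (1.27) and SMAD3 (0.93). The RUNX family had 1 of 4, RUNX3 (0.84), beside RUNX2 at -0.57. Neither the TGF-β and BMP list nor the RUNX list had an input-enriched member. Genes known to respond to estrogen in breast cancer cells had 2 of 18 (11.1%, also near the 9.37% of all genes). They were NRIP1 (1.27), an estrogen-induced corepressor, and MYB (1.00), while TFF1 (-0.21), GREB1 (0.07) and PGR (0.14) were not called. The NRIP1 bin was not input-enriched, with a ratio of 1.29 and a mean signal of 0.791.

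Of 20 genes taken from the study's text, which are not all that it names, 8 were called higher, beside 9.37% of all genes. None of the 8 was called under equal-enrichment scaling, where their differences ran from 0.33 to 0.71. They were CLOCK (1.02), CXCL1 (1.55), CXCL10 (1.04), KLF9 (1.03), DUSP5 (0.86), TP53I11 (1.00), BMAL2 (1.22) and NFIB (1.20). These genes were chosen on these samples, so their count is not independent evidence of a direction. VEGFA, NR2F6, ZNF341, RUNX1 and IGFL4 had differences from 0.09 to 0.47 with adjusted p from 0.384 to 0.88. All but IGFL4 had bins that were not input-enriched, with ratios of 1.095 to 1.2. The study linked sites to genes over a wider range, so its sites need not lie in these bins. For VEGFA, ZNF341 and IGFL4 it describes more p65 binding with ERβ in HT29, which is another comparison than the difference taken here. PROX1 was among the genes taken, but the site the study describes for it lies outside the range searched here. JUND was taken although the study names it as a p65-bound gene and for no ERβ effect. BIRC3, CXCL1, CXCL8 and PDGFB are named there for an ERβ change of their TNFα expression response, which is RNA and not binding. For CLOCK, CXCL10, RUNX1, TP53I11, NFIB and BMAL2 the study describes sites lost with ERβ in HT29 and gained with it in SW480. RUNX1 was not called here.

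Of the 107 genes with a mean signal of 8 or more, 53 were called higher (49.5%), and of the 10 strongest 2 were. The 10 genes of highest mean signal were NFKB2, NFKBIA, ATG16L2, BIRC3, TNFAIP3, SHH, THSD8, SDC4 and the pair MITD1 and MRPL30, which share a bin. Only SDC4 (1.21, adjusted p = 0.00317) and THSD8 (0.96, adjusted p = 0.0227), whose bin lies in an intron of HOOK2, were called, and both calls were lost without HT29 pair 2 or 3. Under equal-enrichment scaling SDC4 had 0.09 and THSD8 -0.16, and with the range of 1 kb THSD8 had -0.09. At TNFAIP3, the deubiquitinase that ends NFκB signalling, the bin covered the TSS and the signal was 20.1, 9.88 and 12.1 in HT29 mock, 19.7, 9.51 and 9.11 in HT29 ERβ, 24.9, 24.4 and 19.5 in SW480 mock, and 16.1, 30.7 and 23.9 in SW480 ERβ. The groups of each line overlapped, and the difference was 0.15 ± 0.29 (adjusted p = 0.832).

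NFKBIA, which encodes IκBα, had 22.8, 10.7 and 13.2 in HT29 mock, 24.3, 10.4 and 10.4 in HT29 ERβ, 24.1, 21.2 and 14.7 in SW480 mock, and 20.6, 36.4 and 25.6 in SW480 ERβ, a difference of 0.52 ± 0.29 (adjusted p = 0.303). At both genes SW480 replicate 1 was lower with ERβ and replicates 2 and 3 were higher. ATG16L2, a homologue of an autophagy gene, had a difference of 0.29 ± 0.29 (adjusted p = 0.624). Under equal-enrichment scaling 9 of the 10 strongest genes had differences below 0, so their direction depended on the scaling. TNFAIP3 (-0.99), ATG16L2 (-0.84) and NFKBIA (-0.63) were then called lower, and NFKB2 (-0.39), BIRC3 (-0.51), SHH (-0.49), MITD1 and MRPL30 (both -0.45) were not called.

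**Figure D4:**
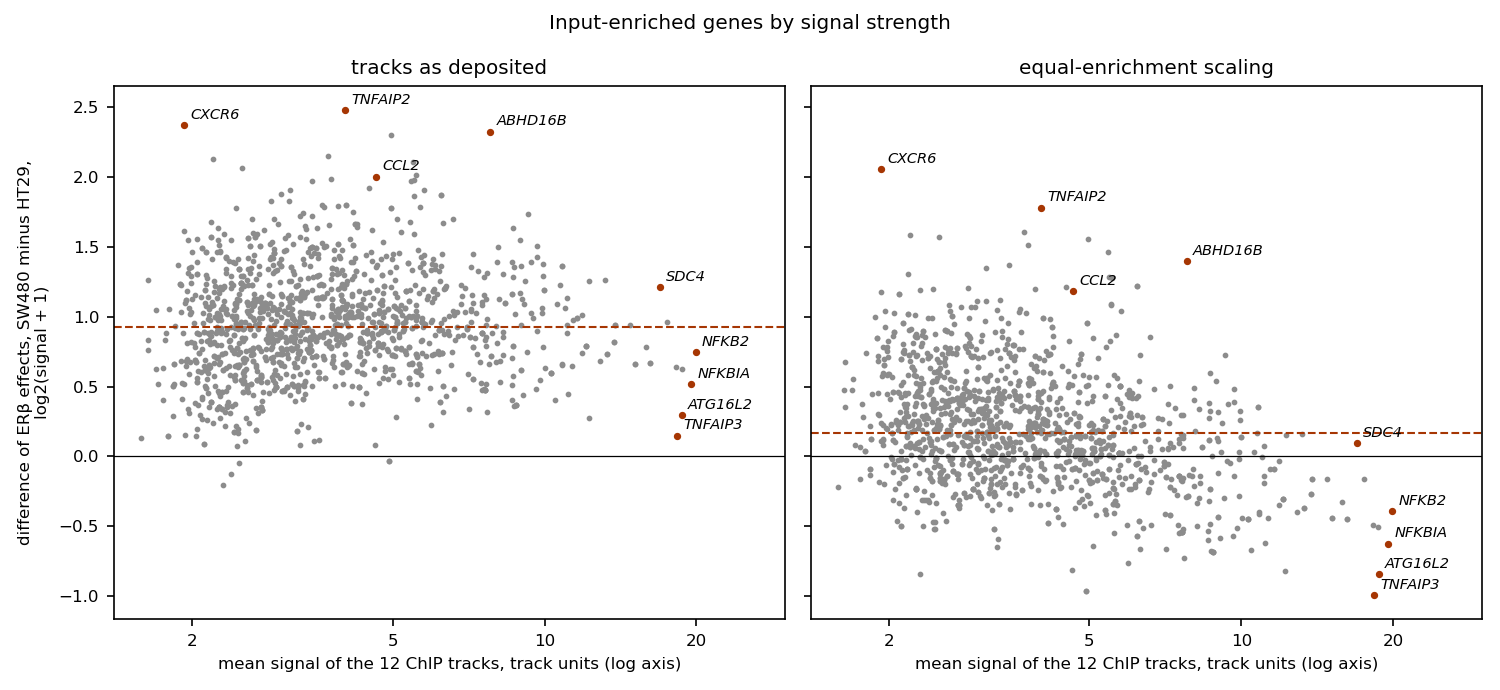
Difference of ERβ effects (y axis) against the mean signal of the 12 ChIP tracks (x axis, log scale) at the 1436 input-enriched genes, with the tracks as deposited on the left and under equal-enrichment scaling on the right, and the dashed lines at the medians of 0.93 and 0.17. TNFAIP2, CXCR6, ABHD16B and CCL2 lie high in both panels, and TNFAIP3, ATG16L2 and NFKBIA, at the right edge, drop below 0 in the second.

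Genes that lost p65 signal with ERβ in SW480 relative to HT29 were few and weakly covered. The 10 called lower were TYSND1 (-0.89), FBXO25 (-0.83), CCDC28A (-0.82), MMP13 (-0.80), SHCBP1 (-0.77), ECI2 (-0.69), LIMCH1 (-0.67), RLN1 (-0.65), STC1 (-0.57) and ZNF257 (-0.51). None was input-enriched. Their ratio to input, with 1 added to both, ran from 0.986 to 1.15, a scale that holds low signals near 1. Their mean ChIP signal ran from 0.242 to 1.12 beside a mean input of 0.195 to 1.15, and at FBXO25 it was 0.499 beside 0.311. A κB match was in 1 of the 10 bins. Of the 10 calls, that of FBXO25 alone held whichever pair was left out, and it was not called with the input ratio (-0.12, adjusted p = 0.71) or under equal-enrichment scaling (-0.88, adjusted p = 0.0621).

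FBXO25, an F-box subunit of a ubiquitin ligase, had its bin at the TSS. The signal was 0.070, 0.110 and 0.120 in HT29 mock, 0.1, 0.220 and 0.210 in HT29 ERβ, 1.31, 1.12 and 1.53 in SW480 mock, and 0.425, 0.250 and 0.514 in SW480 ERβ. The groups did not overlap in SW480, for a difference of -0.83 ± 0.21 (adjusted p = 0.00569). TYSND1, a peroxisomal protease, had 0.350, 0.330 and 0.647 in HT29 mock, 0.580, 1.07 and 0.845 in HT29 ERβ, 1.62, 1.79 and 2.91 in SW480 mock, and 0.823, 1.31 and 1.16 in SW480 ERβ, at a coding exon 600 bp downstream of the TSS. Its difference was -0.89 ± 0.26 (adjusted p = 0.0185), and with CCDC28A it was 1 of the 2 genes of the 10 that were also called lower under equal-enrichment scaling. The TYSND1 difference was not called with bins chosen by ChIP minus input (-0.00), the grid shifted by 100 bp (-0.25) or the range of 1 kb (-0.33).

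MMP13, a collagenase, had 0.440, 0.478 and 0.513 in HT29 mock, 0.893, 0.772 and 1.11 in HT29 ERβ, 0.620, 0.657 and 1.23 in SW480 mock, and 0.420, 0.370 and 0.290 in SW480 ERβ, 568 bp upstream of its TSS. The groups of each line did not overlap and differed in opposite directions, beside a mean input signal of 0.575 at this bin. At STC1, a secreted regulator of calcium and phosphate, the HT29 step from 0.117 ± 0.0404 to 0.483 ± 0.0764 (SD, n = 3) made up most of the difference, and SW480 went from 0.420 ± 0.101 to 0.272 ± 0.135. The next genes in order of unadjusted p, REC114 (-0.64, adjusted p = 0.0508) and DEFA4 (-0.54, adjusted p = 0.0531), did not pass.

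**Figure D5:**
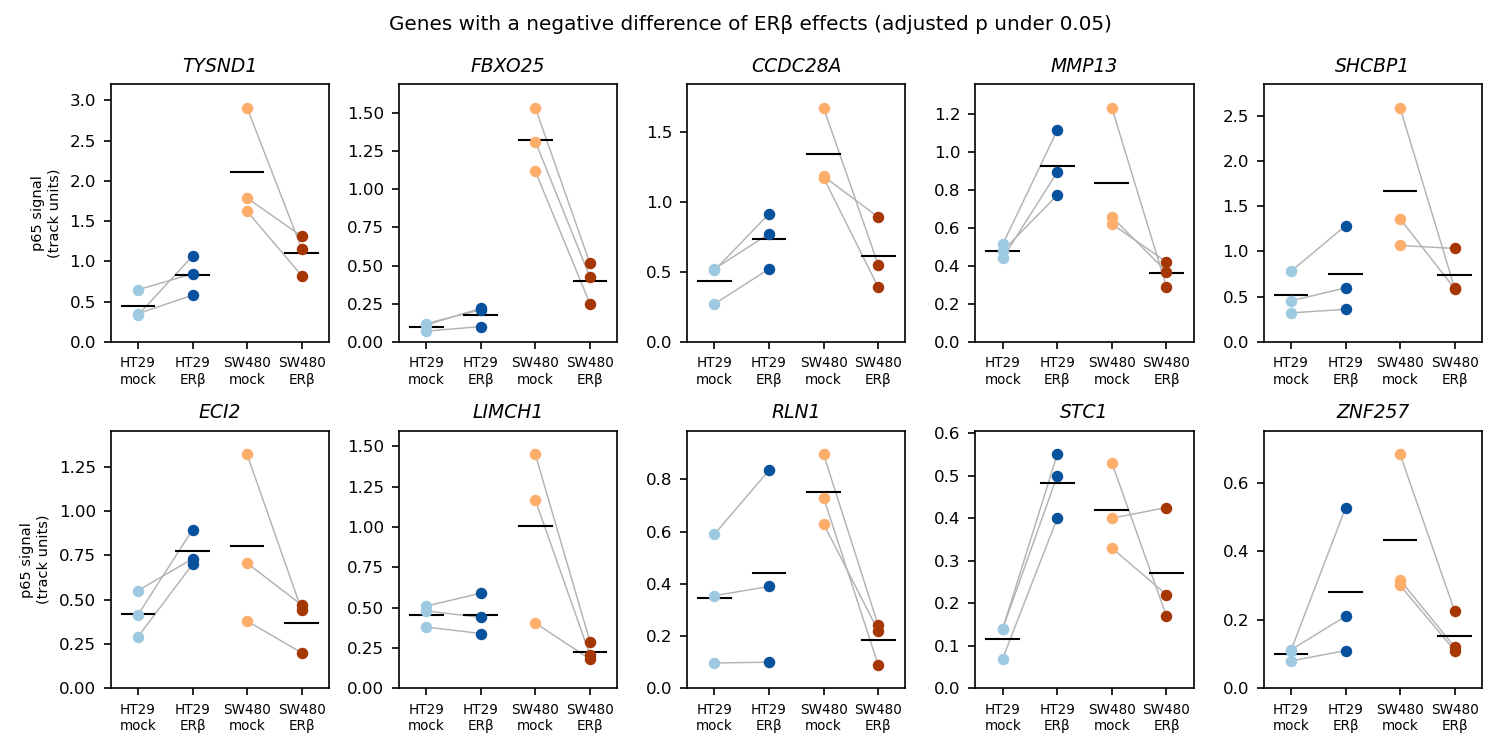
p65 signal (y axis, track units, from 0, with a different range in each panel) at the bins of the 10 genes called lower, with 1 point per library, grey lines joining libraries of the same replicate number, and black bars at group means. All values are below 3, and SW480 ERβ means lie below SW480 mock means in each panel.

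Among input-enriched genes a difference below 0 was found at 4 bins, none of them called. They belong to ITGAD (-0.20, adjusted p = 0.755), ADAM8 (-0.13, adjusted p = 0.856), UBAC2 (-0.05, adjusted p = 0.949) and AZIN1 (-0.04, adjusted p = 0.967), the last shared with an unnamed gene. Under equal-enrichment scaling 6 of the 11 genes called lower were input-enriched, AZIN1 and the gene on its bin (-0.96, adjusted p = 0.0473), RAB22A (-0.82, adjusted p = 0.0103), TNFAIP3, ATG16L2 and NFKBIA. At ITGAD, an integrin α chain of leukocytes, both fitted changes were above 0, 0.25 in HT29 and 0.05 in SW480.

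Motif matches were counted by class of bin. A κB match was in 46.8% of the 839 bins that were called higher without input enrichment. Among input-enriched bins a κB match was in 69.2% of the 672 called higher and 63.4% of the 492 not called, and an AP-1 site was in 4.91% and 7.52%, compared with 3.84% of all bins. A RUNX core (TGTGGT, both strands) was in 7.14% and 7.93%, compared with 10.2% of all bins. Of the 100 input-enriched bins of largest difference 71 held a κB match and 7 an AP-1 site, and of the 100 of smallest difference 53 and 15 did. These groups were cut from the measured differences and were not tested. No input-enriched bin held the palindromic estrogen response element, which describes these 200-bp windows alone.

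At the threshold, the last genes called were NNAT (0.75 ± 0.26, adjusted p = 0.0497) and GORAB (0.92 ± 0.32, adjusted p = 0.04997), and the first not called were MGA (0.82 ± 0.28) and DIDO1 (0.81 ± 0.28), both with adjusted p = 0.0504.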

How the data were processed

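p65 was measured by ChIP-Seq in 12 libraries, with 4 inputs. The authors aligned reads to hg38 with STAR and deposited signal tracks made with HOMER: per the file headers, coverage scaled to 10000000 tags and 100-bp fragments, with values under 0.05 left out. The tracks hold no counts, so the count test of the study's methods could not be run on them and their precision rests on the replicates. The mapped reads per library that the study states are not used here.

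Signal was averaged in 200-bp bins. TSSs were those of GENCODE 44 canonical transcripts on chromosomes 1 to 22 and X. Genes with over 10% of the range without a value in all 16 tracks (1109) are not analysed here. limma 3.58.1 (R 4.3.3) was fitted to log2(signal + 1) with line by replicate number as a block of 6 pairs, leaving 4 residual degrees of freedom, the mean-variance trend and Benjamini-Hochberg adjustment over 18861 genes, and was tested on simulated data. The pseudocount of 1 makes differences at low signal smaller. ± is the SE of limma differences and the SD of replicate means. The labels do not state separate cultures, though the study's methods speak of biological replicates, and the spread between these samples may be technical. limma drew the spread of each gene toward a trend over all genes, with 78.75 prior beside 4 residual degrees of freedom. Each SE and p-value of a limma difference therefore rests mostly on that trend and does not measure the spread of the gene's own pairs alone.

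Named were the 12 genes of largest difference in each direction with pairs that did not overlap (10 passed on the lower side, followed by unadjusted p), the 10 of highest mean signal, of each of 19 lists the 2 of highest signal and 2 of largest absolute difference, and 20 genes taken from the study's text. Other list members were named after their values were seen. Members and lists were chosen with earlier results of these data known. The κB, AP-1, RUNX and estrogen response element motifs were searched on both strands of the reference. Some genes, a list and a sequence are not reported here. The alternatives tried are given in the closing section.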

Additional observations from a re-analysis of the deposited data

Results flagged for a closer look

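Listed here are the named genes that passed adjusted p under 0.05 in limma, a test of the difference itself, in the tracks as deposited. Some of them changed sign under another scaling, as given in the next section. The values given are differences on the log2(signal + 1) scale, SW480 minus HT29. The first is their mean over input-enriched genes, 0.944, where all 3 SW480 pairs were above 0 and all 3 HT29 pairs below, a separation that 3 against 3 pairs cannot take past the threshold of an exact test. With 3 libraries per group no library was screened as an outlier. The enrichment of the libraries moved with this mean, which was 0.199 under equal-enrichment scaling.

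Of the leading genes the values were TNFAIP2 (2.48), CXCR6 (2.37), ABHD16B (2.32), LAD1 (2.30), MFSD10 (2.15), CIITA (2.13), TNFRSF6B (2.12), CLIP2 (2.11), MRM3 (2.06), TIFA (2.01), CCL2 (2.00) and COLEC10 (1.98). In the other direction they were TYSND1 (-0.89), FBXO25 (-0.83), CCDC28A (-0.82), MMP13 (-0.80), SHCBP1 (-0.77), ECI2 (-0.69), LIMCH1 (-0.67), RLN1 (-0.65), STC1 (-0.57) and ZNF257 (-0.51).

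Among genes named for their list, their signal or by the study, those called whichever replicate pair was left out were NFKB1 (1.39), RELA (1.35), TRAF3 (1.35), TRAF1 (1.65), TNFRSF1B (1.56), CXCL1 (1.55), CSF1 (1.46), EBI3 (1.39), GADD45B (1.47), PMAIP1 (1.41), MAFF (1.31), EGR1 (1.49), NR1D2 (1.36), DUSP6 (1.20), EPHA2 (1.20), ICAM1 (1.67), LAMB3 (1.60), NFIB (1.20), NRIP1 (1.27), IFIH1 (1.33), SKIL (1.27), HES1 (1.45), LEF1 (1.59), NAMPT (1.70), MT2A (1.57), RPS2 (1.39) and RPL22L1 (1.24). Of these, TRAF1, TNFRSF1B, NRIP1 and LEF1 were also called under equal-enrichment scaling, and all the others lost the call there. Only TRAF1 among those kept was input-enriched (ratio 3.18), with ratios of 1.74 at TNFRSF1B, 1.29 at NRIP1 and 1.54 at LEF1. Those whose call was lost with at least 1 pair left out were THSD8 (0.96), SDC4 (1.21), CCL20 (1.02), IL32 (0.94), LIF (0.99), BID (0.94), KLF10 (0.91), SPRY4 (1.04), RUNX3 (0.84), MYB (1.00), IRF1 (1.02), IRF2 (1.19), SMAD3 (0.93), HES4 (0.93), NFE2L2 (1.08), RPL22 (0.91), OR5AC2 (0.81), OR4K5 (0.79), CLOCK (1.02), CXCL10 (1.04), KLF9 (1.03), DUSP5 (0.86), TP53I11 (1.00) and BMAL2 (1.22).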

How the results depend on the processing

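The tracks are scaled to total tags, so a change in the share of tags in enriched bins and a change at single genes both enter every value, and they hold no counts, so no counting interval or floor could be computed from them. The mean difference over input-enriched genes was 0.944 and stayed positive in every alternative run. It was 0.196 with quantile normalization, 0.199 with equal-enrichment scaling, 0.195 with that scaling and without HT29 pair 1 (chosen after seeing the data), 1.285 with the input ratio, 0.568 with the range of 1 kb upstream and 100 bp downstream, 0.935 with enrichment judged from the 6 mock tracks (also chosen after seeing the data), and 0.822 to 1.097 with 1 pair left out.

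Genes called higher and lower, 1767 and 10 as reported, were 167 and 1 with no replicate block, 75 and 8 with quantile normalization, 115 and 11 with equal-enrichment scaling, 68 and 5 with that scaling without HT29 pair 1, 1033 and 80 with median centring, 8638 and 236 with the input ratio, 708 and 9 with the range of 1 kb and 3905 and 19 with that of 50 kb upstream. They were 1919 and 18 with the grid shifted by 100 bp, 1846 and 24 with bins chosen by ChIP minus input, 2105 and 5 without the trend, 1306 and 0 with bins of mean signal at least 2, and 838 to 2630 and 4 to 32 with 1 pair left out. The input ratio uses 1 input per group, and the study lists the ERβ inputs under another deposited series. The SW480 effect, called at 2605 genes as reported, was called at 728 with no replicate block, 402 with quantile normalization, 504 and 417 with equal-enrichment scaling (with and without HT29 pair 1), 8556 with the input ratio, 1205 and 5034 with the range of 1 and of 50 kb, 1349 with the signal filter and 1020 to 3118 with 1 pair left out. The HT29 effect, called at 0, was called at 2 with local background correction, 2474 with the input ratio, 4 with equal-enrichment scaling without HT29 pair 1, and 0 whichever pair was left out. The cause of these changes was not tested.

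On pairing, deviations of same-numbered libraries over enriched bins correlated at 0.343, 0.099 and 0.144 in HT29 and 0.325, 0.140 and 0.280 in SW480. In SW480 every different-numbered pair correlated less (-0.306 to 0.006), so there each library correlated best with its own number. In HT29 mock replicate 2 correlated more with ERβ replicate 3 (0.121), so over both lines the numbers were not taken to pair the samples, and the block follows the definition of the difference.

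Of the values of the named genes under all alternatives, 1799 kept direction and side of the threshold, 463 kept direction and lost the call, 74 gained it, and 103 changed sign. With 1 pair left out the sign changed with at least 1 pair at TNFAIP3 (-0.01 to 0.45), NR2F6 (-0.12 to 0.30) and RUNX1 (-0.08 to 0.44). With the range of 1 kb upstream and 100 bp downstream the sign changed at LAD1 (-0.02), MFSD10 (-0.27), CIITA (-0.27), COLEC10 (-0.07), REC114 (0.23), THSD8 (-0.09), TNFRSF1B (-0.29), DBP (-0.22), NR1D2 (-0.18), MT2A (-0.02), OR5I1 (-0.28) and IGFL4 (-0.10). With the TSS at the 5′ end of the gene the sign changed at CIITA (-0.19), LIMCH1 (0.23), IRF1 (-0.04) and TGIF1 (-0.02). With bins chosen by ChIP minus input the sign changed at MMP13 (0.14), ECI2 (0.20), STC1 (0.23) and REC114 (0.09). With the range of 50 kb upstream the sign changed at ECI2 (0.35) and REC114 (0.25). With the grid shifted by 100 bp the sign changed at REC114 (0.14) and RUNX1 (-0.10). With equal-enrichment scaling the sign changed at NFKB2 (-0.39), NFKBIA (-0.63), ATG16L2 (-0.84), BIRC3 (-0.51), TNFAIP3 (-0.99), SHH (-0.49), THSD8 (-0.16), MITD1 (-0.45), MRPL30 (-0.45), MAP3K8 (-0.21), CCL20 (-0.00), IL32 (-0.14), BID (-0.12), DBP (-0.42), CRY2 (-0.23), ELF3 (-0.20), MYC (-0.77), CCND1 (-0.02), IRF1 (-0.02), ERBB3 (-0.01), RPL22 (-0.06), CXCL8 (-0.60), NR2F6 (-0.08) and ZNF341 (-0.17). With equal-enrichment scaling without HT29 pair 1 the sign changed at NFKB2 (-0.43), NFKBIA (-0.59), ATG16L2 (-0.80), BIRC3 (-0.42), TNFAIP3 (-0.98), SHH (-0.40), THSD8 (-0.07), MITD1 (-0.39), MRPL30 (-0.39), MAP3K8 (-0.43), CCL20 (-0.07), IL32 (-0.16), LIF (-0.05), BID (-0.32), DBP (-0.37), CRY2 (-0.24), ELF3 (-0.08), MYC (-0.83), CCND1 (-0.04), ERBB3 (-0.05), RPL22 (-0.14), OR5I1 (-0.03), CXCL8 (-0.76), VEGFA (-0.10), AGO2 (-0.04), NR2F6 (-0.09), IGFL4 (-0.02) and ZNF341 (-0.15). With quantile normalization the sign changed at NFKBIA (-0.06), ATG16L2 (-0.33), BIRC3 (-0.05), TNFAIP3 (-0.51), MITD1 (-0.05), MRPL30 (-0.05), MAP3K8 (-0.19), KLF10 (-0.02), DBP (-0.37), CRY2 (-0.25), ELF3 (-0.23), MYC (-0.65), CCND1 (-0.03), HES4 (-0.00), RPL22 (-0.12), OR5I1 (-0.02), CXCL8 (-0.50), VEGFA (-0.01), NR2F6 (-0.10) and ZNF341 (-0.11). With median centring the sign changed at TNFAIP3 (-0.01) and NR2F6 (-0.06). With the input ratio the sign changed at CXCL8 (-0.27). Where the range, the TSS, the grid or the choice of bin differed, another bin could represent the gene by construction, and elsewhere the cause was not tested.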
